A study of Mus musculus with 18 samples.

Results

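LAP2α knockout (KO) myoblasts were compared at day 2 of differentiation (D2) and while proliferating (Prol), across all genes measured. The comparison used 6 of the 18 libraries of the series, 3 at D2 and 3 at Prol, and 17672 genes were tested. LAP2α is a nucleoplasmic protein encoded by *Tmpo* that binds lamin A/C. The cells are immortalized mouse myoblasts of a p53 knockout line, so every group lacks p53. LAP2α knockout cells were made with Cas9 and a guide RNA against LAP2α. Wildtype (WT) cells received the Cas9 plasmid with no guide. Both were bulk-sorted by the GFP of the plasmid, so each is a mixed population and not a clone. Prol cells grew in 20% fetal calf serum, D0 cells had just become confluent, and D2 cells had then spent 48 hours in 5% serum. RNA was selected by its poly(A) tail and sequenced, and the values are CPM, the expected counts of a gene relative to a library total that the authors had adjusted for RNA composition. Library totals ranged from 26437823 to 41619016 expected counts over the series.

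Myoblasts are muscle precursors that stop dividing, switch on muscle genes and fuse into multinucleated myotubes. The transcription factors MyoD and myogenin drive this program by binding short DNA motifs called E-boxes, while inhibitors such as the Id proteins, cyclin D1 and high serum hold it back. Contractile proteins of the sarcomere, the calcium release machinery and the nerve contact follow. The retinoblastoma protein, to which LAP2α and lamin A/C are known to bind, keeps genes of the cell division cycle silent once cells exit.

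At D2 the KO cells had raised 101 of 202 tested muscle genes and lowered 69 of 71 genes of DNA replication and mitosis. A gene was said to rise or fall when its adjusted p-value was under 0.05, it changed more than 1.5-fold and it reached 10 CPM in at least 1 of the 6 libraries. By this rule 1706 genes rose (9.65% of those tested) and 2100 fell (11.9%). The rises reached further than the falls, since 251 genes rose and 43 fell more than 8-fold, and 108 rose and 0 fell more than 32-fold. Of 202 tested genes in 9 muscle lists, 101 rose and 3 fell, with a median log2 fold change of 2.25, against 0.02 over all genes tested. Of 71 genes of DNA replication and mitosis, 0 rose and 69 fell, with a median of -2.61. RNA was taken from whole cultures, so a larger share of differentiated cells and more RNA per cell cannot be told apart.

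*Tmpo* itself stood at 250.3, 228 and 260.4 CPM in KO Prol and at 94.5, 108 and 157 CPM in KO D2. The fall was 1.07 on the log2 scale (SE 0.21, adjusted p = 0.001), and WT cells had 309.9, 275 and 315 CPM at Prol and 106, 149.5 and 157 CPM at D2. The gene value sums all *Tmpo* transcripts, including those of the LAP2β isoform, and therefore does not check the knockout. *Trp53*, the p53 gene, was still transcribed, with 114, 143 and 137 CPM in KO Prol and 40.1, 44.3 and 49 CPM in KO D2.

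One D2 library of each genotype stood apart. In KO D2 replicate 1, genes with 10 kb or more of exon sequence had a median log2 level 0.64 above the other two D2 libraries, and genes under 2 kb had a median 0.46 below them. In WT D2 replicate 1 these medians were 0.68 and -0.40. Without both libraries 98 muscle genes rose and 69 replication and mitosis genes fell in KO cells, a check chosen after the data had been seen. Replicate numbers were shared between the states, and KO libraries of the same number deviated together, so the blocked value is given for gene and list calls that it changes markedly. The study modelled the sequencing lane as a batch, which the labels do not give, so lane is in none of the fits and its part in the libraries that stood apart and in the p-values was not tested. The labels do not say whether replicates were separate cultures, and p-values measure only the spread between these libraries, which may be technical.

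The promoters of 5 genes that the results below turn on are shown first, as the 160 bases before the transcription start, from RefSeq on GRCm38.p6. The first 3 belong to genes that rose, and capitals mark E-boxes (CANNTG). *Myog* encodes myogenin (chr1:134289844-134290003, + strand), and *Chrng* (chr1:87205651-87205810, + strand) and *Chrna1* (chr2:73580339-73580498, - strand) encode subunits of the muscle acetylcholine receptor.
Myog: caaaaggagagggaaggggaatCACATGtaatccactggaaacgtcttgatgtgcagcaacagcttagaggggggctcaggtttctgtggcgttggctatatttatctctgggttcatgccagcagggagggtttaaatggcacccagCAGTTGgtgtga
Chrng: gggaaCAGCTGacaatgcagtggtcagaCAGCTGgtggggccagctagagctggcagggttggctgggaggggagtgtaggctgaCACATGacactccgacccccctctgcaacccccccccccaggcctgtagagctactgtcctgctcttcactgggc
Chrna1: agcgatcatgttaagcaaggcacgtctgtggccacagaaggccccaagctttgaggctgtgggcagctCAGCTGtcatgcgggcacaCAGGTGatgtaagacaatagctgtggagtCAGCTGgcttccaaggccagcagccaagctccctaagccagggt

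The other two belong to genes that fell, and capitals mark CCAAT boxes (CCAAT on either strand) and the cell cycle element known as CHR (TTTGAA on either strand). *Cdk1* (chr10:69352913-69353072, - strand) encodes the kinase that drives entry into mitosis, and *Ccnb1* (chr13:100786487-100786646, - strand) encodes its partner cyclin B1.
Cdk1: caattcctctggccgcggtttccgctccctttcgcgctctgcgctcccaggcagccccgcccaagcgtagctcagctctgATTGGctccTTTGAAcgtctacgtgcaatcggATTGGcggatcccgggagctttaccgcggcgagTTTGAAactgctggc
Ccnb1: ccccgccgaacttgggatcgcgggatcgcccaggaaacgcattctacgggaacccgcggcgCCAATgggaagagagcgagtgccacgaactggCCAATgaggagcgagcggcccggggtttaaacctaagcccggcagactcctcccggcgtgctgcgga

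The motifs were counted in the 250 bases before the start of every gene in the RefSeq table. The E-box form CAGCTG, which is its own reverse complement and is also counted as CANNTG, stood before 30 of the 70 risen muscle genes found in the table (42.9%) and before 14.7% of the 27025 genes in it. Any E-box was found before 82.9% of these muscle genes and 69.3% of all genes. The CCAAT box stood before 21 of 28 fallen mitosis genes (75%), 18 of 29 fallen DNA replication genes (62.1%) and 37.5% of all genes. TTTGAA stood before 10 of the mitosis genes (35.7%), 5 of the replication genes (17.2%) and 18.3% of all genes. These are counts of letters and not of bound sites.

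Among 24 tested myogenic regulators 10 rose and 1 fell, with a median log2 fold change of 1.13. *Myog*, whose product marks commitment to differentiation, had 0.49, 1.59 and 0.72 CPM in KO Prol and 213, 232 and 148 CPM in KO D2. All D2 libraries lay far above all Prol libraries, a log2 rise of 7.88 (SE 0.69, adjusted p = 1.1e-06). *Myod1*, the master regulator upstream of it, rose from 1.72, 3.3 and 5.88 CPM to 47.7, 75.2 and 48.6 CPM, a log2 change of 4.12 (SE 0.53, adjusted p = 2.8e-05).

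*Mef2c*, a partner of the MyoD family, rose from 3.49, 2.62 and 2.85 CPM to 52.2, 43.1 and 43.9 CPM (log2 change 3.96). The other regulators that rose included *Rbm24* and *Smyd1*, with log2 changes of 7.22 and 6.69. *Myf5*, the factor already present in precursors, did not pass the test, with 24.2, 21.4 and 24.6 CPM at Prol and 15.5, 14.9 and 29.6 CPM at D2. *Myf6*, a late factor of the family, was at or below 0.43 CPM in all 6 libraries. *Eya1*, a transcriptional cofactor, fell by 0.95 (adjusted p = 0.028), a call that was lost in 3 of the 6 fits with 1 library left out.

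These levels were reached after confluence. In KO D0 *Myog* was at 1.07, 3.15 and 0.5 CPM, and *Myod1* at 3.1, 3.54 and 3.76 CPM, within or close to the range at Prol. Over the 101 risen muscle genes, the median D0 level was 3.82% of the D2 level.

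**Figure D1:**
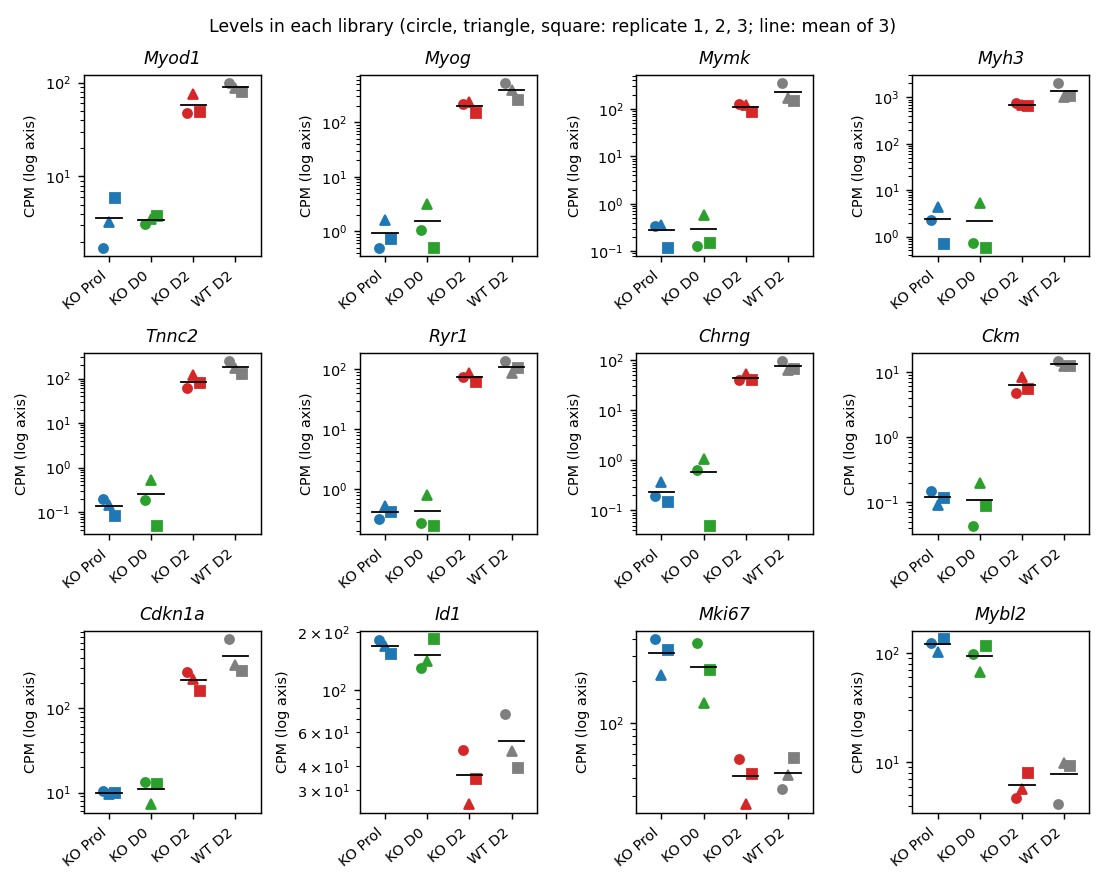
CPM on log axes in each KO Prol, KO D0, KO D2 and WT D2 library for 12 genes, with a line at the mean of 3. The 9 panels from Myod1 to Cdkn1a show KO D0 near KO Prol and KO D2 far above both, and Id1, Mki67 and Mybl2 show KO D2 below both.

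Of 18 tested repressors of myogenesis 3 rose and 3 fell. The Id proteins bind and disable the partners of MyoD. *Id1* had 182, 169 and 154 CPM at Prol and 48.3, 25.1 and 34 CPM at D2, a fall of 2.28 (SE 0.27, adjusted p = 1e-05), and *Id2* fell by 1.77. *Id3* fell by 0.83, with 1 D2 library (153 CPM) inside the Prol range of 152 to 214 CPM. *Bhlhe40*, *Snai2* and *Twist1* rose by 1.67, 0.78 and 0.65. The calls of *Id3*, *Snai2* and *Twist1* were each lost in some of the fits with 1 library left out, 2, 4 and 4 of 6.

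Of 24 genes of cell fusion 7 rose and 0 fell, or 10 and 1 with the replicate block. *Mymk* encodes myomaker, the membrane protein that lets myoblasts fuse, and had 0.34, 0.36 and 0.12 CPM at Prol and 126, 122 and 86.1 CPM at D2. Its log2 change of 8.81 (SE 0.83, adjusted p = 1.9e-06) was among the 10 largest of all genes with at least 10 CPM. Its partner *Mymx* (myomerger) reached 17, 39.1 and 18.7 CPM from 0.33 CPM or less. *Cav3*, a muscle caveolin, had 3 counts or fewer in each Prol library and 16.5, 22.6 and 19 CPM at D2. *Cdh15*, the muscle cadherin, rose by 4.78. The adhesion genes *Cdh2*, *Itgb1* and *Ncam1*, which many cell types express, did not pass the test. *Cd9* and *Cd81* were among the 7 that rose. Their calls were lost in 3 and 6 of the 6 fits with 1 library left out. In those fits 5 to 6 genes of the list rose.

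The sarcomere genes moved furthest. Of 23 thick filament genes 17 rose and 0 fell, and the median log2 change was 6.69, or 6.34 when the 5 genes with 3 counts or fewer in each Prol library were set against 3 counts. The summed CPM of this list was 12.1, 20.3 and 11 at Prol, 9.51, 33.5 and 12.8 at D0, and 2508, 2600.3 and 1952 at D2. The D0 libraries lay near the Prol libraries and the D2 libraries far above both. *Myh3*, the embryonic myosin heavy chain, went from 2.23, 4.32 and 0.68 CPM to 743, 690.4 and 639 CPM, a log2 change of 8.52 (SE 1.03, adjusted p = 1.4e-05). *Mybpc1*, which encodes slow myosin-binding protein C, had 3 counts or fewer in each Prol library and 10.3, 15.9 and 16.1 CPM at D2.

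*Ttn* encodes titin, the spring that spans the sarcomere, and has the longest transcript of the list. It had 0.94, 0.8 and 0.18 CPM at Prol and 815, 90.4 and 84.7 CPM at D2, so replicate 1, the library in which long genes were high, stood apart from the other two. Its log2 change was 8.47 with all libraries and 7.40 to 9.03 with 1 library left out, and it passed the test in each case.

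Of 22 thin filament genes 15 rose and 1 fell, with a median log2 change of 6.29. *Tnnc2*, the fast troponin C and the largest rise of all genes with at least 10 CPM, went from 0.19, 0.14 and 0.083 CPM to 61.5, 118 and 78.4 CPM (log2 change 9.29, SE 0.76, adjusted p = 7.7e-07). The muscle actins *Acta1* and *Actc1* reached 517, 638 and 478 CPM, and 400.4, 399 and 278 CPM, from under 5 CPM. The exception was *Tpm3*, a tropomyosin that non-muscle cells also use, which fell from 766, 640.2 and 747 CPM to 360.0, 258 and 315 CPM. Its relative *Tpm2* rose, and the ratio of *Tpm2* to *Tpm3* went from 0.204 ± 0.031 to 1.32 ± 0.39 (SD, n = 3).

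Of 27 Z-disc and costamere genes 15 rose and 0 fell. *Des*, the muscle intermediate filament desmin, rose from 2.11, 3.07 and 3.18 CPM to 86.8, 103 and 87.4 CPM, and *Actn3* and *Myoz2* rose by 6.74 and 7.30. Of 26 genes of excitation-contraction coupling 16 rose and 0 fell. *Ryr1*, the calcium release channel, went from 0.31, 0.52 and 0.42 CPM to 76.2, 86.4 and 61 CPM (log2 change 7.50, SE 0.58, adjusted p = 5.7e-07). Its voltage sensor *Cacna1s* had 3 counts or fewer in each Prol library and 12.4, 12.7 and 10.9 CPM at D2. *Casq2*, a calcium buffer of the sarcoplasmic reticulum, reached 182, 216 and 167 CPM from 0.61 CPM or less, and *Tmem38a*, a cation channel of the same membrane, rose from 6.73, 8 and 5.98 CPM to 35.3, 62.1 and 51.9 CPM.

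Of 18 genes of the neuromuscular junction 10 rose and 0 fell, and 10 also rose with any 1 library left out. *Chrna1* was already present in Prol cells, at 11.7 and 13.6 CPM in replicates 2 and 3 and slightly less in replicate 1, and rose to 154, 155 and 138 CPM (log2 change 3.67, SE 0.33, adjusted p = 1.4e-06). *Chrng*, the subunit of the fetal receptor, went from 0.19, 0.36 and 0.15 CPM to 39.9, 54.1 and 39.7 CPM. *Dok7* and *Erbb3*, which act in signalling at the junction, reached 11.1 to 18.3 CPM and 12.8 to 19.6 CPM. In the dystrophin complex 8 of 20 genes rose (12 with the replicate block) and 0 fell, among them *Itga7*, the muscle laminin receptor, which rose from 4.58, 3.6 and 7.91 CPM to 74.2, 99.3 and 94.3 CPM.

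Genes of muscle energy metabolism had moved less than those of the sarcomere. Of 21 tested, 4 rose and 1 fell, with a median log2 change of 0.59. *Ckm*, the muscle creatine kinase and a marker of mature fibres, had 0.15, 0.091 and 0.12 CPM at Prol and 4.66, 8.45 and 5.54 CPM at D2. Its log2 change of 5.69 passed the adjusted test (adjusted p = 8.4e-07), but no KO library reached the 10 CPM that a call needs. *Pygm* and *Pgam2*, muscle enzymes of glycogen breakdown and glycolysis, reached 5.71, 10.8 and 8.94 CPM and 3.62, 11.8 and 7.76 CPM. *Aldoa*, a glycolytic enzyme that most cells express, fell by 0.97 (adjusted p = 0.0098), and *Eno3* did not pass the test, with 112, 115 and 121 CPM at Prol and 114, 136 and 168 CPM at D2.

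Across the 9 muscle lists, 46 of the 202 tested genes stayed under 10 CPM in all 6 libraries. Of these, 28 were higher at D2 with an adjusted p-value under 0.05 and over 1.5-fold. They included genes of late or adult fibres. *Mb*, which encodes myoglobin, was at 1.26, 3.55 and 2.61 CPM at D2, the adult myosin *Myh4* at 0.8, 1.23 and 0.74 CPM, and *Tcap*, the titin cap, at 0.31, 0.94 and 0.51 CPM. *Pax7*, the satellite cell factor, was looked for and had no values in these data.

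**Figure D2:**
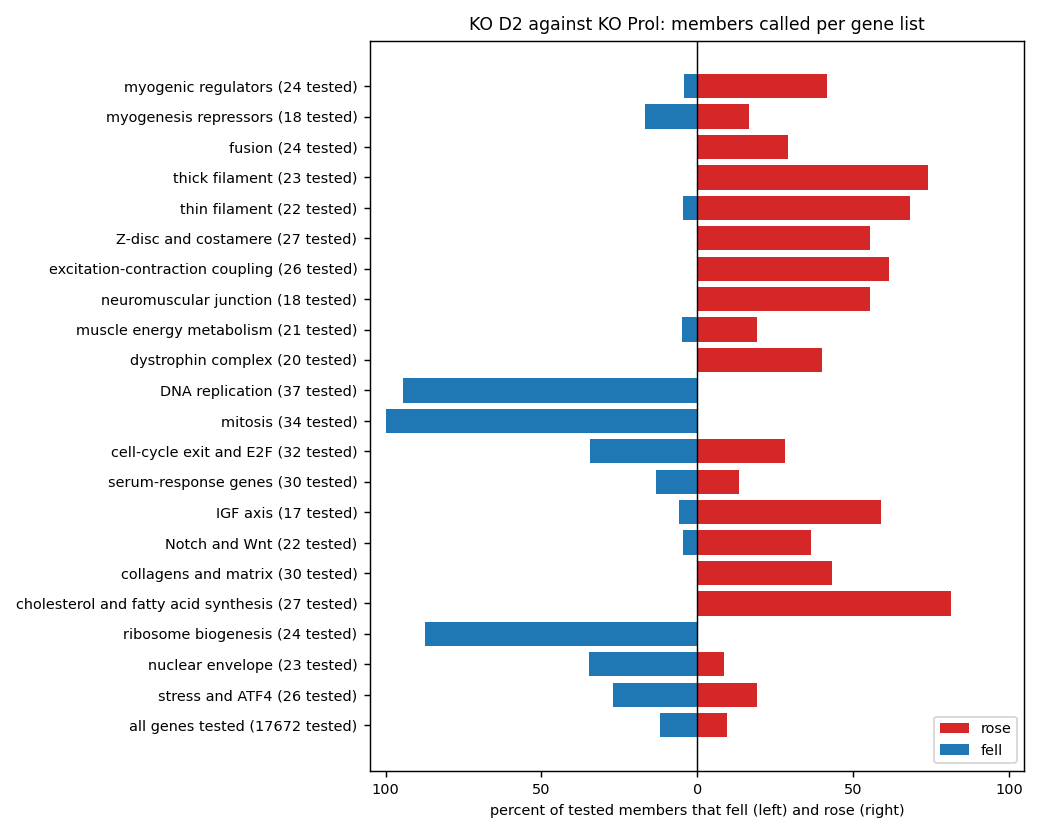
Percent of the tested members of each of 21 gene lists, and of all genes tested, that rose (right, red) or fell (left, blue) from KO Prol to KO D2. The muscle lists extend to the right, DNA replication, mitosis and ribosome biogenesis extend to the left, and all genes stand at 9.65% and 11.9%.

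Shares within protein families differed between Prol and D2. Levels were divided by the exon length of each gene and given as shares of the family, for families chosen after the values had been seen. *Myh3* made up 95.3% ± 0.59 of the 6 skeletal myosin heavy chains in KO D2, and 95.2% ± 0.36 in WT D2 (SD, n = 3), where near-identical stretches of these genes make the split of reads uncertain. Among the troponin T genes, the share of *Tnnt2*, the form of heart and embryonic muscle, fell from 72.9% ± 21.9 at Prol to 14.2% ± 0.85 at D2. Its level rose, from a mean of 1.6 CPM per kb in KO Prol to 17.9 in KO D2. *Tnnt3*, the fast form, held 67.8% ± 0.74 at D2. *Tnnc2* went from 9.88% ± 2.9 to 43.2% ± 0.62 of troponin C. *Chrnb1* made up 66.0% ± 2.7 of 4 acetylcholine receptor subunits at Prol, and *Chrna1* made up 50.1% ± 2.6 at D2. Shares at Prol rest on very low levels in the myosin and troponin families, and no test was made of these shares.

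**Figure D3:**
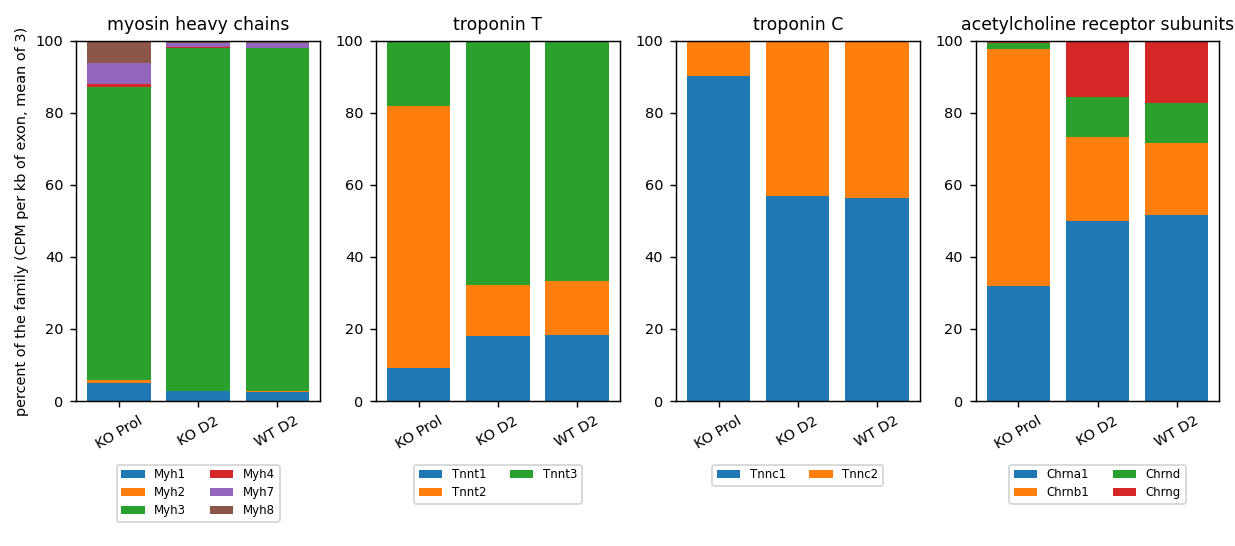
Shares of each gene in 4 protein families, from CPM per kb of exon, as the mean of 3 libraries of KO Prol, KO D2 and WT D2. Myh3 fills 95.3% of the myosin bar in KO D2, and the KO D2 and WT D2 bars differ less from each other than from KO Prol.

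The division program went down in the same cultures. All 34 mitosis genes fell, as did 35 of 37 DNA replication genes, and the other two, *Gins4* and *Rfc3*, did not pass the test (adjusted p = 0.052 and 0.26) but fell with the replicate block (adjusted p = 0.0022 and 0.0041). The summed CPM of the mitosis list was 6914, 5669 and 6413 at Prol, 6141, 4385 and 6249 at D0, and 951, 790.1 and 1163 at D2. *Mki67*, the proliferation marker Ki-67, had 399, 221 and 336 CPM at Prol and 54.8, 25.9 and 42.8 CPM at D2 (log2 change -2.98, SE 0.45, adjusted p = 0.00011). All D2 libraries lay below all Prol libraries.

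*Ccnb1* went from 260.5, 245 and 260.1 CPM to 37.5, 37.2 and 49.9 CPM, a fall of 2.63 (SE 0.26, adjusted p = 2.5e-06), and *Cdk1* went from 184, 231 and 202 CPM to 24.3, 33.6 and 48.8 CPM. In DNA replication, *Rrm2*, a subunit of the enzyme that makes deoxynucleotides, fell from 349, 259.7 and 305 CPM to 28.4, 24.8 and 33.8 CPM, and *Mcm10*, which acts at the start of replication, fell by 3.40. *Mcm2* and *Pcna*, parts of the replicative helicase and of the sliding clamp, fell by 2.27 and 1.77. *Mybl2*, which encodes the B-Myb factor of the late cell cycle, had 125, 103 and 134 CPM at Prol and 4.76, 5.76 and 8.07 CPM at D2, the 4th largest fall of all genes with at least 10 CPM (log2 change -4.31, SE 0.32, adjusted p = 4.9e-07).

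Of 32 genes of cell cycle exit and the E2F family 9 rose and 11 fell. *Cdkn1a*, the inhibitor p21 that halts the cycle during myogenesis, went from 10.3, 9.55 and 9.84 CPM to 270.5, 223 and 161 CPM in these p53 knockout cells (log2 change 4.43, SE 0.36, adjusted p = 7.5e-07). *Rb1*, the retinoblastoma gene, rose from 8.59, 7.59 and 8.74 CPM to 38.8, 27.5 and 24 CPM, while its relative *Rbl1* fell by 1.94. *Ccnd1*, which encodes cyclin D1, fell from 316, 193 and 247 CPM to 55.2, 19.1 and 59.2 CPM (adjusted p = 0.00025). The E2F genes *E2f1*, *E2f7* and *E2f8* fell and *E2f2* rose, from 4.06, 4.76 and 4.14 CPM to 13.9, 21 and 16 CPM. *Cdkn1c*, the inhibitor p57, was under 10 CPM throughout and differed between D2 libraries (9.99, 6.76 and 1.72 CPM).

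Genes of ribosome production fell as well, 21 of 24, with 0 rising. *Nop56*, part of a particle that modifies ribosomal RNA, fell from 623, 734 and 708 CPM to 177, 141 and 182 CPM. With 1 library left out the count lay between 14 and 23, the lowest without KO D2 replicate 2. Genes that respond to serum did not move as a group, with 4 rising and 4 falling of 30. *Fosl1*, a Fos family member, fell by 3.03 and *Myc* by 1.30, the second call being lost without KO D2 replicate 2, and *Spry1*, a feedback inhibitor of growth factor signals, rose from 7.15, 8.26 and 7.45 CPM to 43.6, 45.2 and 54.1 CPM. In this list 9 genes fell with the replicate block, 12 fell without KO D2 replicate 1, 14 without the D2 libraries of replicate 1 of both genotypes, and 2 without KO D2 replicate 2.

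The insulin-like growth factor (IGF) genes rose strongly, 10 of 17 with 1 falling. *Igf2*, a growth factor that myoblasts make as they differentiate, had 40.6, 67 and 60.4 CPM at Prol and 1504, 1095 and 1036 CPM at D2 (log2 change 4.45, SE 0.65, adjusted p = 8.9e-05). *Igfbp5*, a binding protein for it, went from 8.74, 6.74 and 6.84 CPM to 779, 493 and 712 CPM. It was already higher at D0 than in every Prol library, at 27.1, 15.3 and 11.4 CPM. *Igf1* and *Igfbp4* rose by 3.86 and 5.09, and *Igf2bp1*, an RNA-binding protein, fell by 0.87. Of the receptor genes, *Igf1r* and *Insr* did not pass the test. *Igf2r* rose, a call that was lost in 4 of the 6 fits with 1 library left out.

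Of 22 Notch and Wnt genes 8 rose and 1 fell. *Dll1*, a Notch ligand, reached 12.2, 17.7 and 12.1 CPM from 0.36 CPM or less. The number that rose lay between 4 (without KO Prol replicate 2) and 6 with 1 library left out. With the replicate block 11 rose and 4 fell.

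Of 27 genes of cholesterol and fatty acid synthesis 22 rose and 0 fell, with a median log2 change of 1.57. *Insig1*, which senses sterols, rose from 29.3, 35.7 and 26 CPM to 195, 229 and 173 CPM, and *Hmgcs1*, an early enzyme of the pathway, rose from 72.3, 60.3 and 51.1 CPM to 307, 207 and 187 CPM. The medium held less serum at D2, so the medium and the state of the cells cannot be told apart, for this list or any other.

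Matrix genes rose unevenly. Of 30 collagen and matrix genes 13 rose and 0 fell, and 22 rose with the replicate block. *Col3a1* rose from 621, 547 and 511 CPM to 10452, 4858 and 3756 CPM, and *Postn*, the matrix protein periostin, from 127, 92.3 and 46.3 CPM to 3812, 2191 and 903 CPM. *Col1a1* had 1507, 961 and 504 CPM at Prol and 13453, 3754 and 3182 CPM at D2. It did not pass the test (log2 change 2.59, adjusted p = 0.068) but passed with the block (adjusted p = 5e-05). Replicate 1 was the highest library for each of these 3 genes in both states. Its summed list made up 7.68% of all counts at D2, against 3.25% and 3.13% in the other two.

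Markers of fibroblasts moved with the matrix genes. Of 7 tested markers 3 rose, *Dcn* from 0.1, 0.24 and 0.15 CPM to 60.7, 47.6 and 40.4 CPM, *Dpt* from 0.55 CPM or less to between 87.8 and 129 CPM, and *Pdgfra* from 46.4, 35.4 and 16.6 CPM to 241, 241 and 81.6 CPM. Another 3 of the 7 stayed under 10 CPM and were also higher at D2 with an adjusted p-value under 0.05 and over 1.5-fold. Among these was *Thy1*, at or below 0.34 CPM. The summed list ranged from 21.2 to 52.8 CPM at Prol and from 229 to 440 CPM at D2. In WT cells the sum was 243 to 269 CPM at D2. The part of fibroblast-like cells in the matrix result was not tested. Of the other marker lists, *Acta2* rose in that of smooth muscle (adjusted p = 0.018, lost without KO D2 replicate 1 or KO Prol replicate 2) and *Cnn1* fell (lost without KO D2 replicate 2), *Pparg* fell among adipocyte markers, and *Col2a1*, a cartilage collagen, fell from 215, 70.5 and 32.5 CPM to 8.86, 2.12 and 1.85 CPM. In the cardiac, endothelial and macrophage lists, all 8 tested genes stayed under 10 CPM in the 6 libraries, so none could be called. With an adjusted p-value under 0.05 and over 1.5-fold, 1 of 2 cardiac and 2 of 3 endothelial genes were higher at D2. By the same measure 1 of 3 macrophage genes was lower.

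Among 23 genes of the nuclear envelope, where LAP2 proteins reside, 2 rose and 8 fell. *Lmnb1*, which encodes lamin B1, fell from 271, 194 and 232 CPM to 60.4, 28.5 and 43.2 CPM (log2 change -2.45, SE 0.34, adjusted p = 5.1e-05). *Lbr* and *Emd*, the lamin B receptor and emerin, fell by 1.21 and 0.80. *Lmna* had 1082, 776 and 830.4 CPM at Prol and 925, 404 and 445 CPM at D2 and did not pass the test (adjusted p = 0.23), but did so with the replicate block (adjusted p = 0.014). The ratio of *Lmna* to *Lmnb1* was 3.86 ± 0.24 at Prol and 13.3 ± 2.6 at D2 (SD, n = 3), with no overlap of the libraries. *Syne1*, which encodes the linker nesprin-1, rose by 1.77, a call that was lost without KO D2 replicate 1. Of 26 stress genes, 5 rose and 7 fell. *Ddit3* rose by 1.95, and the serine synthesis enzyme *Psat1* fell by 1.11. With 1 library left out, 3 to 5 rose and 4 to 7 fell, 4 without KO Prol replicate 3.

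The WT cells made the same passage, which allowed a test of how far the KO cells had gone beside them. In WT cells 1618 genes rose (9.16%) and 1897 fell (10.7%) by the same rule, and 111 of the 202 muscle genes rose and 2 fell. The difference between the KO and WT changes was tested for each gene in limma as an interaction. It passed the adjusted threshold for 0 genes. Before adjustment, 167 genes (0.945% of those tested) had p under 0.05, or 399 with the replicate block. Both counts are smaller than evenly spread p-values would give if no gene differed. The test was therefore cautious, and 0 genes passing does not show that the changes were equal. Same-numbered WT and KO libraries deviated together at D2 (r = 0.645, 0.367 and 0.276), which the fit without the block leaves out. The part of this in the low counts was not tested.

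The changes of most muscle genes were smaller in KO than in WT cells, by amounts that did not pass this test. Members of the lists were chosen with earlier results of these data known, so the share with a smaller change is not independent of them. *Myog* was at 532, 386 and 261 CPM in WT D2, against 148 to 232 CPM in KO D2, and the KO change was 1.22 log2 units smaller (SE 0.98, unadjusted p = 0.233). *Mymk* was at 357, 172 and 148 CPM in WT D2, above all 3 KO D2 libraries, and *Ckm* was at 14.7, 12.3 and 12.2 CPM, with a KO change 1.54 smaller (SE 0.68, unadjusted p = 0.0373, adjusted p = 1). *Tnnc2* changed by 9.29 in KO and 9.85 in WT cells. The summed thick filament CPM was 5294, 3831 and 3188 in WT D2, and no KO D2 library (1952 to 2600.3) reached that range.

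Over the 202 muscle genes the median difference of the changes, KO minus WT, was -0.43, and it was negative for 154 of them. Over all genes tested the median was -0.01, and the difference was negative for 9244 of 17672. Without both D2 libraries of replicate 1 the muscle median was -0.25. At an unadjusted p-value under 0.05 stood 7 muscle genes (3.47%), *Tpm2*, *Myoz1*, *Csrp3*, *Casq1*, *Srl*, *Ckm* and *Acp6*. All 7 had the smaller change in KO cells. This share was above the 0.945% of all genes, but also below what evenly spread p-values would give. The count was 19 of 202 with the replicate block, against 399 of 17672 over all genes, and 44 with 1 CPM added before the log. Without WT Prol replicate 1 the count was 17, without WT D2 replicate 1 it was 4, and without both D2 libraries of replicate 1 it was 1. For 202 genes, the counts of 19, 44 and 17 are larger than evenly spread p-values would give, and those of 4 and 1 are smaller. Whether muscle genes exceed an even spread thus depended on the fit. Adjusted over all genes, no muscle gene passed in any fit.

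For replication and mitosis the median difference was -0.20, or -0.38 without both D2 libraries of replicate 1. It was negative, a larger fall in KO cells, for 67 of 71 genes, and 0 of them had an unadjusted p-value under 0.05. *Mki67* was at 33.2, 41.9 and 56 CPM in WT D2, which overlapped KO D2. For collagens and matrix the median difference was 0.11, or 0.18 without those libraries.

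**Figure D4:**
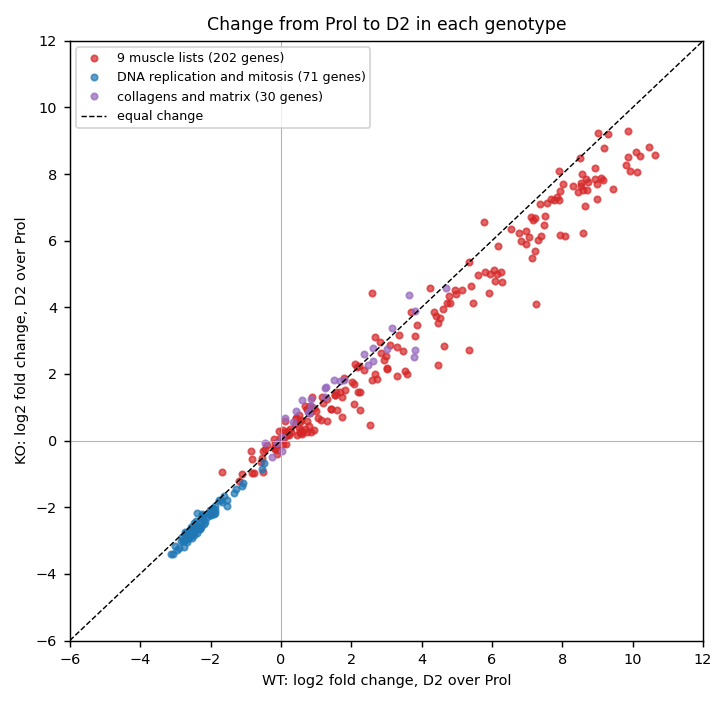
Log2 fold change from Prol to D2 in KO (vertical) against WT (horizontal) for genes of the 9 muscle lists, of DNA replication and mitosis, and of collagens and matrix, with a dashed line of equal change. Muscle genes lie mostly below the line, 154 of 202. Most replication and mitosis genes also lie below it, 67 of 71, and close to it.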

How the data were processed

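Poly(A) RNA-seq of 18 libraries, 3 for each genotype and state, was used. The authors trimmed the reads and mapped them to mouse transcripts of GRCm38. RSEM gave expected counts, which the authors scaled with edgeR's TMM factors and deposited as CPM that hold 0.5 added counts. From the deposited CPM, expected counts and totals were recovered. The deposited values were log2-transformed and fitted with limma 3.58.1 in R 4.3.3 (1 factor of 6 groups, all 18 libraries, variance trend) over 17672 genes that exceeded 5 expected counts in every library of at least 1 group. P-values were adjusted by Benjamini-Hochberg over these genes. Fold changes are on the log2 scale of CPM and understate changes of the lowest genes.

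Same-numbered KO Prol and KO D2 libraries deviated together (r = 0.364, 0.325 and 0.198 across genes), while the third WT pair did not (r = 0.404, 0.269 and 0.0393), so the replicate number was also fitted as a block.

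Genes named were a core set, up to 3 members per list with the largest change and no overlap of libraries, members against their list's direction, the 10 largest rises and falls, and the genes with the smallest interaction p-values, of which some are given, with others chosen after their values were seen. The members and lists were chosen with earlier results of these data known. The fit was tested on simulated data. Symbols and exon lengths are from GENCODE M21 and promoters from RefSeq (GRCm38.p6). Alternatives were other weights, scalings, filters, added CPM, blocks, samples, call rules and each library left out. Some genes that this rule names are not reported here.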

Additional observations from a re-analysis of the deposited data

How the results depend on the processing

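Replacing the rule of 1.5-fold by a log2 fold change over 1.5 lowered the number of genes called in KO D2/Prol to 1409 (793 higher and 616 lower) and in WT D2/Prol to 1326, and dropping the minimum of 10 CPM raised the genes higher in KO D2 to 2934. The other alternatives kept these counts within 1.5 times. With the replicate number as a block (replicate block), the number of KO D2/Prol genes changed was 4927 (2236 higher and 2691 lower) and of WT D2/Prol genes changed 4709, 111 muscle genes rose and 71 replication and mitosis genes fell. Scaling by library totals alone moved the median log2 change of all genes from 0.02 to 0.16 and the calls from 1706 higher and 2100 lower to 2004 higher and 1762 lower. With 1 library left out, 2932 to 3784 genes were called in KO D2/Prol (1310 to 1625 higher and 1622 to 2159 lower), 2636 to 3706 in WT D2/Prol, 95 to 99 muscle genes rose and 68 to 70 replication and mitosis genes fell. Of 312 list members called, 266 kept the call in each of these fits. The interaction had 0 genes with an adjusted p-value under 0.05 in every fit, and 164 to 285 at an unadjusted p-value under 0.05 with 1 library left out, 317 with 1 CPM added and 513 with voom weights and a random block. The cause of these shifts was not tested. Genes at 3 counts or fewer in a group are given by their levels, since their fold change depends on the added counts.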
